A study of Mus musculus with 9 samples.

Results

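The genes Nlrp5, Nlrp14, Nlrp4a, Nlrp4f, Nlrp2, Ooep, Tle6, Khdc3 and Padi6 of the mouse oocyte encode NLRP proteins and their partners in the subcortical maternal complex. They were taken by symbol from a deposited table of 22544 genes and assembled loci, and all 9 of the 9 were found. Each reached 1 FPKM (fragments per kilobase of transcript, scaled to the fragments mapped in the library) in all 9 libraries, so 9 of 9 passed the filter on low values, as did 13338 entries of the whole table. The libraries were made from polyadenylated RNA of whole mouse ovary and fall into 3 groups of 3. NC libraries carry no named treatment. CTX, which the labels do not spell out, usually stands for cyclophosphamide in work on ovarian injury. Libraries labelled HBOT (hyperbaric oxygen therapy) belong to a group that the series' design names CTX+HBOT, so both treated groups share CTX. The sources used here give no strain, age, dose or time of treatment. Whether replicates are different animals is not stated, so every p-value measures the spread among these samples alone, which may be technical.

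The subcortical maternal complex is a large assembly that lies beneath the membrane of the growing oocyte and persists in the early embryo. Its genes are maternal effect genes: for most of the core proteins, females that lack the protein ovulate but their embryos stop developing in early cleavage, while loss of KHDC3 delays embryos and leaves many with abnormal chromosome numbers. NLRP5 (MATER), OOEP (FLOPED), TLE6 and KHDC3 (FILIA) belong to the core, and PADI6 is needed for the fibrous cytoplasmic lattices in which oocytes store protein. The NLRP genes of oocytes are relatives of the NLRP genes that sense danger in immune cells, yet they act in reproduction.

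One library, HBOT replicate 2, differed from the remaining 8 in genes of the cumulus and ovulation response. The summed FPKM of 8 such genes (Areg, Ereg, Btc, Pgr, Ptgs2, Has2, Tnfaip6 and Ptx3) was 881 in it and 2.73 to 5.52 in the others. Summed FPKM of 13 genes of growing oocytes lay between 178 and 444, and that of 8 granulosa markers between 1548 and 2601, so the defining cells of an ovary were represented in every library. Of 3 markers of the oviduct, which can adhere to a dissected ovary, Foxj1 and Pax8 stayed under 1 FPKM throughout and were listed at 0 in some libraries, but Ovgp1 was above 1 FPKM in all 9. Ovgp1 stood at 10.1 FPKM in NC replicate 3 and between 1.99 and 3.86 in the other 8 libraries. Without NC replicate 3 the log2 fold changes of the 9 genes against NC also lay above 0. Column sums ran from 394046 to 420058. FPKM values hold no read counts, so depth could not be recovered, and the number of libraries limits the precision.

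The 9 genes were expressed at very different levels, from Padi6 at 63.96 ± 18.7 FPKM to Nlrp2 at 3.18 ± 1.04 (mean ± SD over the 9 libraries). FPKM is a value per transcript length, so levels of genes can be set side by side. Padi6, the peptidylarginine deiminase family member of the oocyte, led in all 9 libraries. Tle6, which encodes a relative of the Groucho corepressors, followed at 45.4 ± 7.32 and Nlrp14 at 41.4 ± 11.8. Those neighbours differed by less than their spread, with Tle6 above Nlrp14 in 7 of 9 libraries. Khdc3, at 19.6 ± 5.79, and Nlrp5, at 19.6 ± 6.74, could not be ordered either, as Khdc3 was the higher in 5 of 9. Below them came Ooep at 11.2 ± 3.01, Nlrp4f at 8.64 ± 2.41, Nlrp4a at 4.73 ± 1.41 and Nlrp2. From Nlrp5 down this order held within each of the 9 libraries, although the ranges of neighbouring genes overlapped across libraries.

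**Figure D1:**
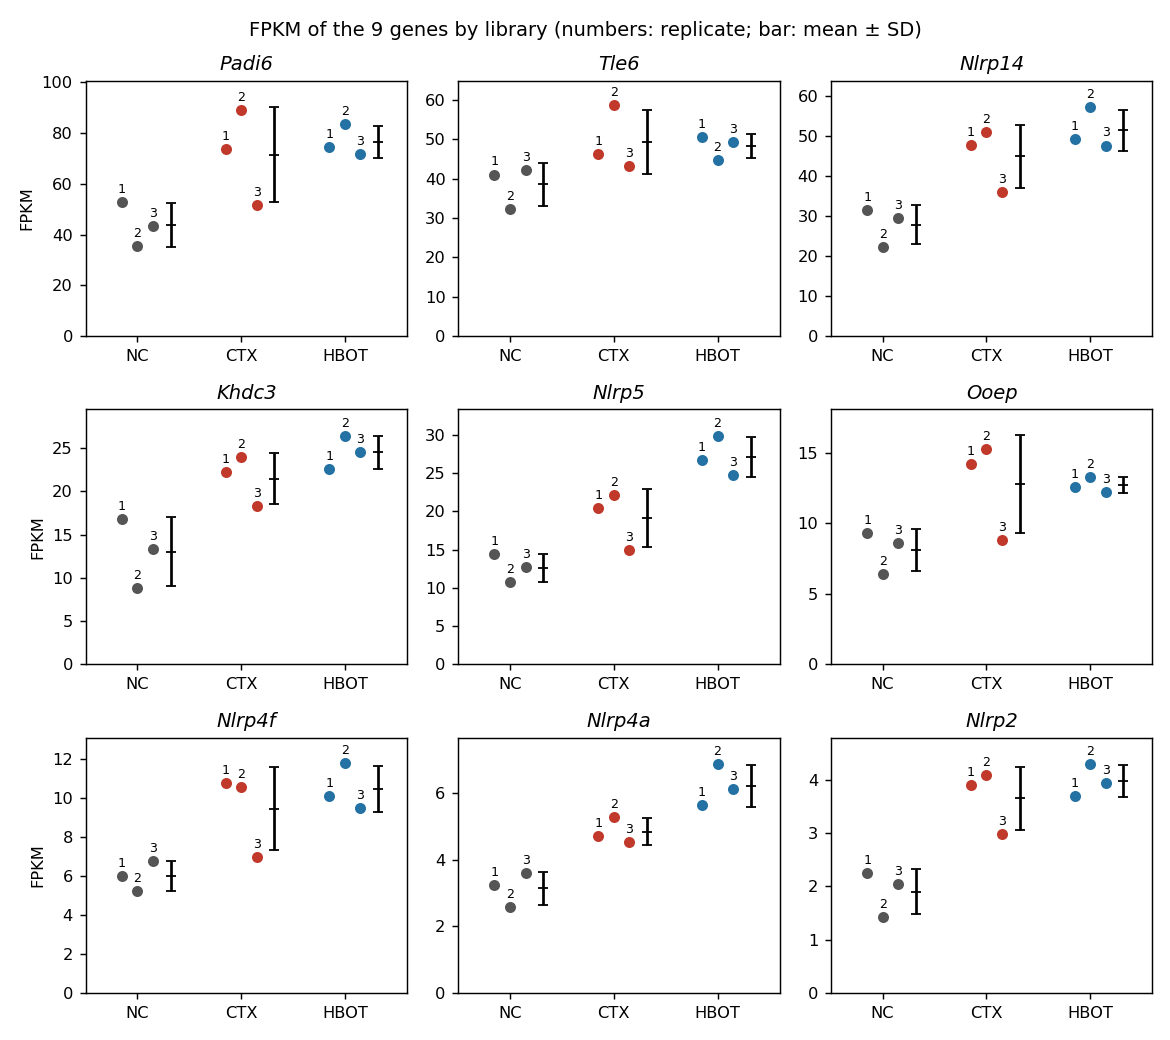
FPKM (vertical axes, from 0) of the 9 genes in the 3 groups (horizontal axes), a panel per gene in order of mean level; points are libraries numbered by replicate and bars show mean ± SD, n = 3. NC replicate 2 is the lowest of the 9 libraries in every panel, and for Nlrp5 and Nlrp4a the 3 groups do not overlap.

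In the core of the complex, all 4 genes had higher mean levels in CTX and in HBOT than in NC, and none of these differences passed the adjusted test. Nlrp5 (ENSMUSG00000015721), whose protein was first known as an antigen in autoimmune ovarian failure of mice, was at 14.4, 10.8 and 12.7 FPKM in NC replicates 1 to 3. It was at 20.4, 22.1 and 14.9 in the CTX libraries and at 26.7, 29.9 and 24.7 in the HBOT libraries. The 3 groups did not overlap, with HBOT above CTX and CTX above NC. Its mean was 1.52 times that of NC in CTX (log2 fold change 0.55, SE 0.17, adjusted p = 0.424 by limma) and 2.15 times in HBOT (1.05, SE 0.17, adjusted p = 0.235).

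Ooep (ENSMUSG00000032346) encodes a small protein with a KH-like fold that is needed for the complex to form. Its NC libraries stood at 9.35, 6.43 and 8.58 FPKM, the CTX libraries at 14.2, 15.3 and 8.82 and the HBOT libraries at 12.6, 13.3 and 12.3. CTX replicate 3 lay within the NC range, while all 3 HBOT libraries lay above it. The log2 fold change against NC was 0.57 (SE 0.21) in CTX and 0.60 (SE 0.21) in HBOT.

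Khdc3 (ENSMUSG00000092622) encodes a KH-domain protein linked to chromosome stability in the early embryo. It was at 16.8, 8.85 and 13.3 FPKM in NC, at 22.2, 23.9 and 18.2 in CTX and at 22.6, 26.4 and 24.5 in HBOT. Neither treated group overlapped NC. NC replicate 2 was the lowest library, and leaving it out took the log2 fold change from 0.72 to 0.48 in CTX and from 0.90 to 0.67 in HBOT.

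Tle6 (ENSMUSG00000034758) had the smallest difference of the 9 genes between treated and NC libraries. Its NC libraries were at 41.1, 32.2 and 42.3 FPKM, the CTX libraries at 46.2, 58.7 and 43.2 and the HBOT libraries at 50.7, 44.8 and 49.3. The treated groups did not overlap NC, but CTX replicate 3 stood only just above the highest NC library. The mean was 1.28 times that of NC in CTX (log2 fold change 0.35, SE 0.15) and 1.25 times in HBOT (0.32, SE 0.15). It was 0.22 in CTX without CTX replicate 2, and 0.20 in HBOT without NC replicate 2.

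Padi6 (ENSMUSG00000040935) was at 52.8, 35.4 and 43.4 FPKM in NC, at 73.8, 89.1 and 51.6 in CTX and at 74.4, 83.5 and 71.6 in HBOT. As for Ooep, CTX replicate 3 fell inside the NC range and the HBOT libraries lay above it. The log2 fold change against NC was 0.68 (SE 0.21) in CTX and 0.81 (SE 0.21) in HBOT. The related deiminase genes Padi1, Padi2 and Padi3 stayed under 1 FPKM in every library, and Padi4 reached it in HBOT replicate 2 alone (3.30 FPKM), so none of the 4 passed the filter. Padi4 and Padi3 are the next protein-coding genes to one side of Padi6 in RefSeq's order of genes.

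Among the remaining NLRP genes, Nlrp14 (ENSMUSG00000016626), whose protein has been tied to the DNA methylation factor UHRF1 in oocytes, was at 31.6, 22.4 and 29.6 FPKM in NC. It was at 47.8, 50.99 and 36.1 in CTX and at 49.4, 57.4 and 47.7 in HBOT, with no overlap with NC (log2 fold change 0.67 and 0.87, each with SE 0.17). Nlrp2 (ENSMUSG00000035177), a maternal effect gene linked to imprinting in the offspring, had the lowest level of the 9 and their highest ratio of means in CTX. It stood at 2.25, 1.42 and 2.04 FPKM in NC, at 3.90, 4.09 and 2.98 in CTX and at 3.69, 4.29 and 3.93 in HBOT, and no treated library overlapped NC. These means were 1.92 and 2.09 times that of NC, and the log2 fold changes were 0.68 and 0.78 (SE 0.16).

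Nlrp4f and Nlrp4a belong to a mouse family of several NLRP4 copies. Nlrp4f (ENSMUSG00000032999) was at 5.98, 5.22 and 6.75 FPKM in NC, at 10.8, 10.6 and 7.0 in CTX and at 10.1, 11.8 and 9.48 in HBOT. Nlrp4a (ENSMUSG00000040601) was at 3.23, 2.59 and 3.59 in NC, at 4.71, 5.29 and 4.52 in CTX and at 5.64, 6.87 and 6.11 in HBOT. Every treated library was above every NC library for both genes, and Nlrp4a was also higher in every HBOT library than in every CTX library. Copies of this family resemble each other, and how shared reads were divided is not stated, so the split among Nlrp4 genes is uncertain. The promoter regions of Nlrp4a and Nlrp4f in RefSeq (GRCm38.p6) hold a common run, cctagggcagtgagtcagcaaatctt, which is shown because no other pair of the 8 genes with a window shared more than 12 letters. This run of 26 bases begins at position 24 from an annotated start of Nlrp4a and at position -231 from that of Nlrp4f.

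**Figure D2:**
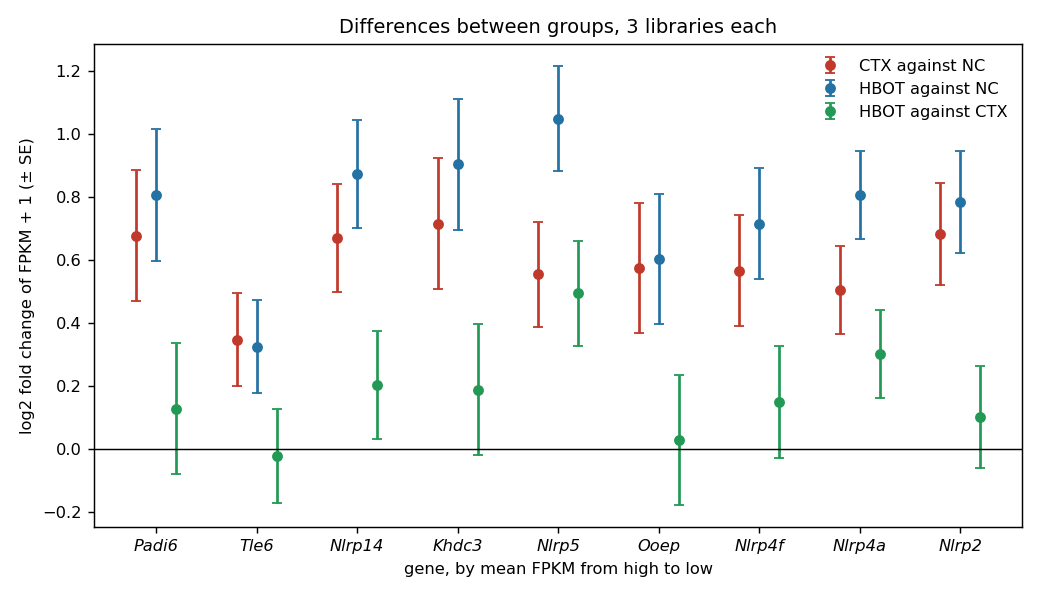
Log2 fold change of FPKM + 1 with its SE from limma (vertical axis) for the 9 genes (horizontal axis, by mean level), in colours for CTX against NC, HBOT against NC and HBOT against CTX. All 9 genes lie above 0 in both comparisons with NC, between 0.32 and 1.05, and Nlrp5 and Nlrp4a lie highest in HBOT against CTX.

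CTX was compared with NC to see which transcripts differ between these 2 groups. All 9 genes were higher in CTX, as were 59.5% of all genes tested, with a median log2 fold change of 0.57 and a range of 0.35 to 0.72, against a median of 0.05 over all genes. By limma, 0 of the 9 passed an adjusted p of 0.05, and 0% of all genes did (adjusted p of the 9 between 0.329 and 0.613). At an unadjusted p under 0.05, 9 of the 9 were higher and 0 lower, against 5.24% and 2.74% of all genes. For 7 of the 9 the CTX libraries lay wholly above the NC libraries and for 0 wholly below, against 13.2% and 7.8% of all genes. Because the 9 genes varied together across libraries, such counts are not 9 separate results, here or in the comparisons below. In bulk tissue, a change in the number of cells of a type and one in RNA per cell cannot be told apart, so these values do not say whether oocytes were more numerous or richer in these transcripts relative to the rest of the ovary.

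CTX replicate 3 was the lowest of the CTX libraries for 9 of the 9 genes, and NC replicate 2 the lowest of the NC libraries for 9 of the 9. The summed FPKM of the 9 genes was 178, 125 and 162 in NC replicates 1 to 3, and 244, 280 and 187 in the CTX libraries. It was 256, 278 and 249.7 in the HBOT libraries. The CTX group was thus the widest, from just above NC to the highest value of all, while the 3 HBOT libraries lay close together. Markers of the corpus luteum also differed in level: 4 of 5 were lower in CTX than in NC. The summed FPKM of all 5 was 2828 to 3235 in NC, 451 to 949 in CTX and 378 to 3400 in HBOT. Most of the NC sum was Akr1c18, at 2127 to 2509 FPKM in NC and 125 to 289 in CTX. In HBOT replicate 3 Akr1c18 stood at 2848, and in HBOT replicate 2 Star stood at 1877. Lhcgr had a higher mean in CTX than in NC (118 against 85.7). Of 6 immune cell markers 5 were higher in CTX, with sums of 68.9 to 76.7 in NC, 86.3 to 121 in CTX and 90.1 to 131 in HBOT. No gene of either list was listed at 0 in any library. Their part in the values of the 9 genes was not tested.

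HBOT was compared with the same NC libraries, so this comparison is not independent of the previous one. All 9 genes were higher in HBOT, against 47.6% of all genes, with log2 fold changes of 0.32 to 1.05 and a median of 0.81, against a median of -0.01 over all genes. Again 0 of the 9 passed by limma, as did 0% of all genes, with adjusted p between 0.235 and 0.427. Unadjusted p-values were under 0.05 for 8 of the 9, all higher, against 6.22% of all genes higher and 5.65% lower. Tle6 was the exception (unadjusted p = 0.0571, adjusted p = 0.427 by limma). The groups did not overlap for 9 of the 9, with HBOT above, against 10.9% of all genes above and 9.6% below. Without HBOT replicate 2 the log2 fold changes still lay above 0 for 9 of the 9, from 0.38 for Tle6 to 0.98 for Nlrp5. Leaving out NC replicate 2 lowered more of them, to between 0.20 for Tle6 and 0.95 for Nlrp5. Ooep then stood at 0.46 in place of 0.60.

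The mean of CTX and HBOT against NC gave log2 fold changes from 0.34 for Tle6 to 0.81 for Khdc3 and adjusted p from 0.161 to 0.424 by limma, with 0 of the 9 and 0% of all genes called. Of all genes, 52.8% lay above 0. Here 9 of the 9 had an unadjusted p under 0.05, all higher, against 6.64% of all genes higher and 3.85% lower. For 7 of the 9 every treated library lay above every NC library, against 4.59% of all genes above and 2.82% below. With a weight estimated for each library, Nlrp5, Nlrp14, Nlrp4a, Nlrp4f and Nlrp2 passed (adjusted p = 0.0189 to 0.0321 by limma), among 451 of all 13338 genes.

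HBOT was set against CTX to see what the oxygen treatment adds, and most of the 9 genes were at similar levels. The median log2 fold change was 0.15, against -0.07 over all genes, 8 of the 9 lay above 0, against 38.4% of all genes, and 0 of the 9 passed (adjusted p 0.71 to 0.965 by limma), as did 0% of all genes. Nlrp5 had the largest difference, 0.49 (SE 0.17, unadjusted p = 0.0165, adjusted p = 0.71 by limma). It was the 1 of the 9 with an unadjusted p under 0.05, against 2.41% of all genes higher and 3.67% lower. Nlrp4a came next, at 0.30 (SE 0.14, unadjusted p = 0.0589, adjusted p = 0.71 by limma). These were the 2 of the 9 whose HBOT libraries lay wholly above the CTX libraries, against 3.76% of all genes above and 6.44% below. Without HBOT replicate 2 Nlrp5 stood at 0.42 and Nlrp4a at 0.24, and without CTX replicate 3 Nlrp5 stood at 0.33. Ooep (0.03, SE 0.21) and Tle6 (-0.02, SE 0.15) were at nearly the same means in both groups. For these genes and for Padi6 (0.13), Nlrp4f (0.15) and Nlrp2 (0.10) the sign turned when a single library was left out.

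The mix of the 9 transcripts was not the same in the 3 groups. Tle6 made up 24.99% ± 1.60, 20.99% ± 2.07 and 18.6% ± 2.12 of their summed FPKM in NC, CTX and HBOT (mean ± SD, n = 3). Nlrp5 made up 8.18% ± 0.387, 8.07% ± 0.258 and 10.4% ± 0.421 in the same order. The share of Tle6 was thus highest in NC, while that of Nlrp5 was alike in NC and CTX and higher in HBOT. Nlrp2 took 1.22% ± 0.0717, 1.55% ± 0.0763 and 1.52% ± 0.0687, more in either treated group than in NC by over the SDs. The share of Padi6 was 28.2% ± 1.51, 29.9% ± 2.16 and 29.3% ± 0.677, and that of Nlrp14 17.97% ± 0.229, 19.01% ± 0.718 and 19.7% ± 0.823. Khdc3 took 8.25% ± 1.20, 9.12% ± 0.601 and 9.37% ± 0.501, and Ooep 5.23% ± 0.0821, 5.33% ± 0.571 and 4.88% ± 0.0754. Shares of 1 sum depend on each other, so a lower share of Tle6 raises those of the other genes.

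**Figure D3:**
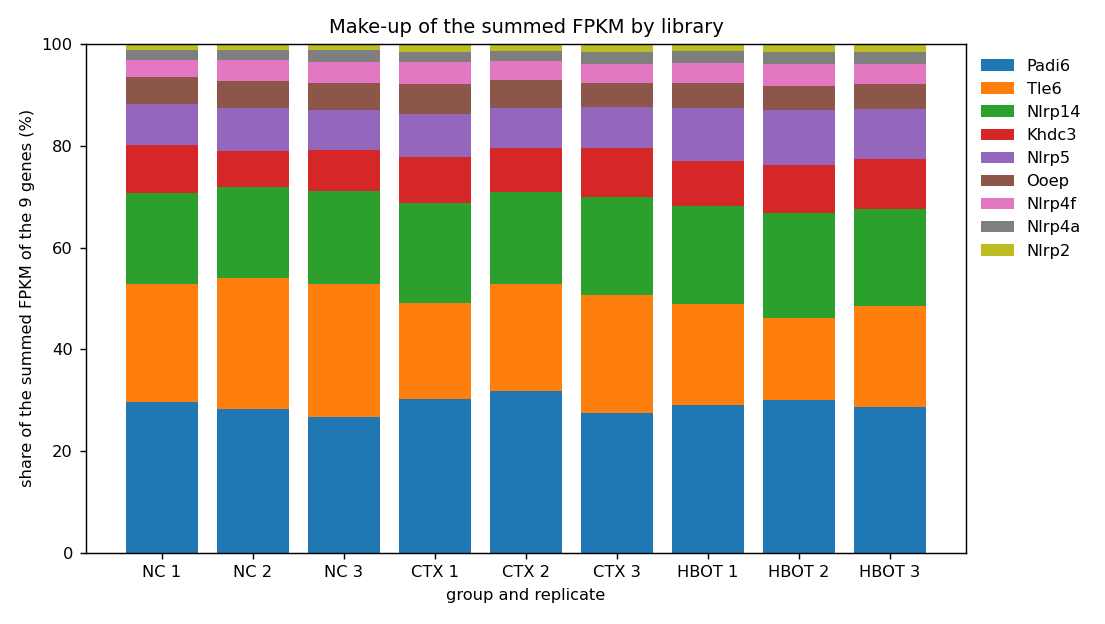
Share of the summed FPKM of the 9 genes (vertical axis, %) taken by each gene in each library (horizontal axis, group and replicate). The Tle6 band narrows from 24.99% on average in NC to 18.6% in HBOT, and the Nlrp5 band is widest in HBOT, at 10.4%.

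Each gene was then set against 13 other genes of growing oocytes, among them the growth factors Gdf9 and Bmp15 and the egg coat genes Zp1, Zp2 and Zp3. The mean of that reference was itself higher than in NC by 0.70 log2 units in CTX and 0.84 in HBOT. Relative to it, the 9 genes had a median difference of -0.12 in CTX and -0.04 in HBOT against NC, and of 0.0035 in HBOT against CTX. These medians are small and depend on the settings. That in CTX was -0.07 without NC replicate 2 and -0.08 without CTX replicate 3. That in HBOT was -0.11 with the zona genes alone as reference, -0.09 without NC replicate 3, -0.07 without HBOT replicate 2 and 0.00382, of the other sign, with a pseudocount of 0.1. Nlrp2, the gene of lowest level, went with that pseudocount from -0.01 to 0.18 in CTX and from -0.06 to 0.15 in HBOT against NC. All but Tle6 lay between -0.24 (Ooep) and 0.21 (Nlrp5) in both comparisons with NC.

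Tle6 relative to the reference was at -0.35 log2 units in CTX and -0.52 in HBOT against NC, with no overlap in either (exact two-sided permutation p = 0.1, the smallest that 3 against 3 libraries allow). With CTX and HBOT together the difference was -0.43 (exact permutation p = 0.0238, the smallest that 6 against 3 allow, lower in 6 of 6 treated libraries). The value in CTX rested in part on CTX replicate 1: without it the difference from NC was -0.23. Without HBOT replicate 2 that in HBOT was -0.44. Ooep was at -0.24 in HBOT against NC, again without overlap (exact permutation p = 0.1), and at -0.24 without HBOT replicate 2. With CTX and HBOT together Ooep was at -0.18 (exact permutation p = 0.0476), and the libraries overlapped. Nlrp5 was higher by 0.35 in HBOT than in CTX and by 0.21 in HBOT than in NC, both without overlap (exact permutation p = 0.1 each). With the zona genes alone as reference these values were 0.24 and 0.13, and without HBOT replicate 2 they were 0.31 and 0.16. In all, 36 such tests were run, 9 genes in 4 comparisons, without adjustment, and the other 6 genes overlapped between groups in each of them.

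**Figure D4:**
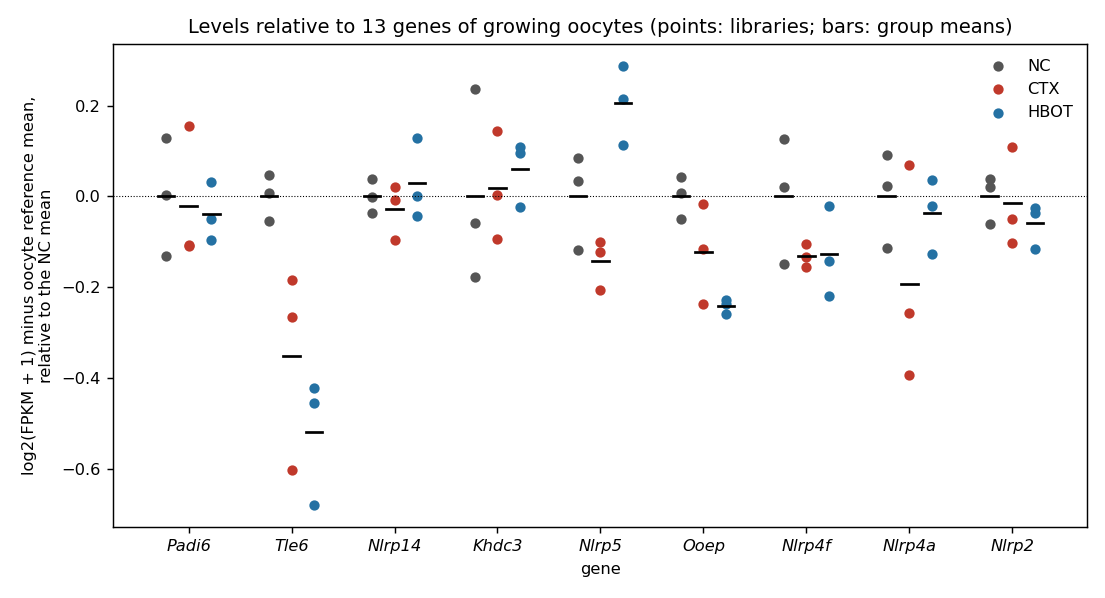
Log2(FPKM + 1) of each of the 9 genes minus the mean of 13 reference genes of growing oocytes, with the NC mean set to 0 (vertical axis), by gene (horizontal axis); points are libraries, coloured by group, and short bars are group means. Tle6 lies below 0 in all 6 treated libraries, and Nlrp5 is higher in all 3 HBOT libraries than in the CTX libraries.

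Further reproductive NLRP genes had values of the same direction. Of 8 listed, 6 were found by symbol and 5 passed the filter. Nlrp9b was the highest of them, at 4.55 ± 0.862 FPKM in NC, 7.65 ± 2.34 in CTX and 8.76 ± 0.0658 in HBOT. Nlrp4b was at 2.32 ± 0.244, 3.74 ± 0.759 and 4.83 ± 0.404 and Nlrp9a at 2.004 ± 0.497, 2.91 ± 0.152 and 3.79 ± 0.312 in the same order. Nlrp9c stood at 2.31 ± 0.707, 3.81 ± 0.754 and 3.70 ± 0.621, and Nlrp4e at 1.20 ± 0.435, 1.70 ± 0.542 and 1.82 ± 0.356. Nlrp4c did not pass, reaching at most 0.741 FPKM. By limma 0 of the 5 passed in any comparison. At an unadjusted p under 0.05, 4 of the 5 were higher in CTX against NC and 4 of the 5 in HBOT against NC. Of all genes, 5.24% and 6.22% were higher at that threshold. The 5 genes had median log2 fold changes of 0.50 and 0.69. In HBOT against CTX, Nlrp4b (log2 fold change 0.31) and Nlrp9a (0.29) lay wholly above, like Nlrp5 and Nlrp4a. That was 2 of the 5, with 0 wholly below, against 3.76% and 6.44% of all genes. In RefSeq's gene order Nlrp4a lies between Nlrp9c and Nlrp9a, and Nlrp4e is next to Nlrp5.

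Partners and KH-domain relatives were also at higher means in both treated groups. Zbed3, a zinc finger protein described in the complex, was at 72.9 ± 10.1, 118 ± 24.9 and 125 ± 11.9 FPKM in NC, CTX and HBOT (log2 fold change 0.68 and 0.77 against NC). Uhrf1, which is also a gene of dividing somatic cells, was at 21.1 ± 2.97, 28.9 ± 7.40 and 30.9 ± 11.9. Dppa5a, the protein-coding neighbour of Ooep, was at 9.79 ± 1.89, 16.6 ± 2.82 and 16.97 ± 1.03, while Ddx43 on the other side of Ooep reached at most 0.142 FPKM. Khdc1b was at 15.9 ± 1.40, 24.4 ± 4.01 and 28.1 ± 3.66, Khdc1a at 3.27 ± 0.133, 4.38 ± 1.38 and 5.22 ± 1.20, and Khdc1c at 3.89 ± 0.755, 4.63 ± 1.09 and 5.40 ± 1.22. By limma 0 of these 6 genes passed in any comparison. Unadjusted p-values were under 0.05, all higher, for 1 of the 2 partners and 2 of the 4 relatives in CTX against NC. In HBOT against NC they were for 1 of the 2 and 3 of the 4. Of all genes, 5.24% were higher in CTX and 6.22% in HBOT at that threshold.

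For the relatives that are best known outside the oocyte, medians lay nearer 0. Of 19 immune NLR and inflammasome genes, 7 passed the filter, with a median log2 fold change of 0.18 in CTX and 0.05 in HBOT against NC. These medians cover a wide spread: single genes ran from -0.48 to 1.496 in CTX and from -0.51 to 0.93 in HBOT. By limma 0 of the 7 passed. At an unadjusted p under 0.05, 2 were higher and 1 lower in CTX, against 5.24% and 2.74% of all genes. In HBOT 2 were higher and 0 lower, against 6.22% and 5.65% of all genes. The 4 with the highest levels were Nod1 (6.36 ± 0.628, 7.38 ± 0.966 and 6.70 ± 1.59 FPKM in NC, CTX and HBOT), Nlrx1 (5.42 ± 0.496, 5.51 ± 0.610 and 3.85 ± 1.99), Nlrc5 (1.43 ± 0.423, 6.03 ± 2.20 and 3.68 ± 1.23) and Casp1 (2.45 ± 0.344, 3.82 ± 0.777 and 4.05 ± 1.24). Nlrc5, a transactivator of class I histocompatibility genes, had a log2 fold change of 1.496 in CTX, with adjusted p = 0.246 by limma. Nlrp3, the sensor of the best known inflammasome, stayed between 0.263 and 0.817 FPKM, and is named here after its values were seen. So are Ciita, with log2 fold changes of 1.14 in CTX and 0.55 in HBOT, and Nlrp10, with -0.48 and -0.13. In CTX, Nlrc5 and Ciita lay above the 9 genes of the complex, whose highest value was 0.72. Among the Groucho relatives of Tle6, Tle5 was at 453 ± 47.2, 477 ± 179 and 291 ± 111 FPKM and Tle2 at 90.8 ± 21.1, 114 ± 57.96 and 59.3 ± 31.5. Tle3 was at 17.5 ± 2.65, 15.7 ± 1.63 and 26.1 ± 14.1, and Tle1 at 16.7 ± 1.43, 16.1 ± 2.95 and 21.03 ± 1.86. Over 5 TLE genes the median log2 fold change was -0.01 in CTX and 0.32 in HBOT against NC, with 0 passing by limma and 0 at an unadjusted p under 0.05. Tle2 and Tle5 are the next protein-coding genes to one side of Tle6.

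Of the transcription factors of oocytes, Nobox, a homeobox factor required for oocyte growth, had the highest level. It was at 6.51 ± 0.735, 9.11 ± 2.09 and 10.2 ± 0.425 FPKM in NC, CTX and HBOT (log2 fold change 0.41 and 0.58 against NC). Figla, which drives zona gene expression, was at 1.07 ± 0.222, 1.35 ± 0.464 and 1.17 ± 0.297. Taf4b was at 4.07 ± 0.298, 4.78 ± 2.07 and 6.07 ± 1.15, and Lhx8 at 2.04 ± 0.152, 2.54 ± 0.565 and 2.85 ± 0.205. The 5 of 7 such genes past the filter had a median log2 fold change of 0.17 in CTX and 0.34 in HBOT against NC. By limma 0 passed. Of the 5, 1 was higher at an unadjusted p under 0.05 in each, against 5.24% and 6.22% of all genes.

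A list of germ cell genes (Ddx4, Dazl, Mael, Ybx2 and Sycp3) gave medians of 0.19 and 0.38 over the 4 of 5 past the filter, with 0 passing by limma. Of the 4, 1 (Ybx2) was higher at an unadjusted p under 0.05 in each, against 5.24% and 6.22% of all genes. Ybx2, an RNA-binding protein of germ cells, was at 6.17 ± 1.59, 9.77 ± 2.74 and 10.8 ± 0.439 FPKM and the helicase gene Ddx4 at 1.55 ± 0.409, 1.79 ± 0.403 and 2.36 ± 0.467. Dazl was at 1.39 ± 0.353, 1.83 ± 0.400 and 2.04 ± 0.219 and Mael at 1.57 ± 0.130, 1.27 ± 0.522 and 1.53 ± 0.190. The 13 reference genes of growing oocytes gave 0.70 and 0.83, next to 0.57 and 0.81 for the 9 genes of the complex. Of the 13, 0 passed by limma, as did 0% of all genes. At an unadjusted p under 0.05, 13 were higher in each comparison with NC, against 5.24% of all genes in CTX and 6.22% in HBOT. The treated libraries lay wholly above NC for 12 in CTX and 13 in HBOT, against 13.2% and 10.9% of all genes. Highest of the 13 were Gdf9, at 38.4 ± 8.74, 67.8 ± 14.3 and 76.8 ± 7.49 FPKM, and Zp3, at 31.4 ± 7.23, 54.1 ± 13.9 and 64.1 ± 5.35. Next came Zp2, at 33.8 ± 4.57, 50.3 ± 10.3 and 57.8 ± 5.71, and H1f8, the oocyte linker histone, at 23.8 ± 4.16, 42.02 ± 9.49 and 47.1 ± 3.01. Differences between these medians were not tested.

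**Figure D5:**
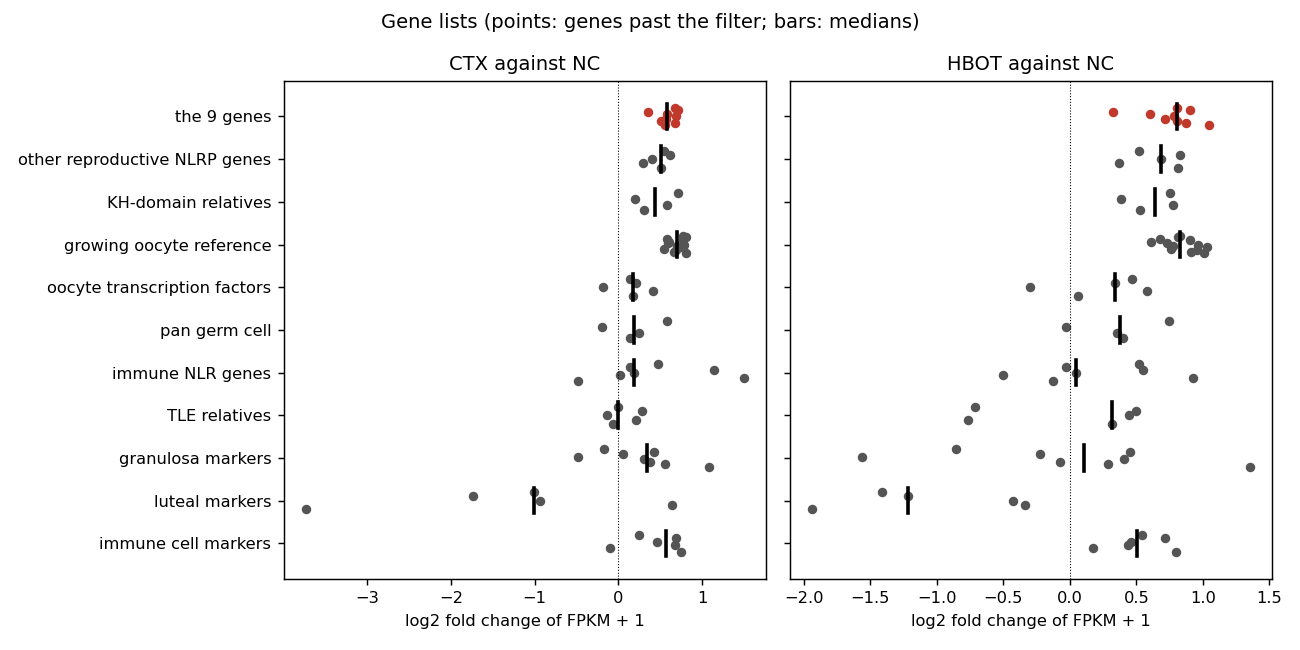
Log2 fold change of FPKM + 1 (horizontal axes) of the genes of 11 lists that passed the filter, in CTX against NC and in HBOT against NC; points are genes and thick bars are medians. The 9 genes (red) centre at 0.57 and 0.81, beside the growing oocyte reference at 0.70 and 0.83, while immune NLR genes centre at 0.18 and 0.05.

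Across the 9 libraries the 9 genes varied together. Over the 36 pairs, Pearson's r of log2(FPKM + 1) ran from 0.74 (Tle6 with Nlrp5) to 0.99 (Nlrp2 with Nlrp14), with a median of 0.93, and over deviations from the group means from 0.52 to 0.98 with a median of 0.82. These are descriptions over 9 points that share their libraries and, within a group, the treatment. Tle6 had the weakest relation to the rest, r = 0.841 with the mean of the other 8 genes, against 0.935 to 0.997 for each of the others. The 10 other genes whose profile was most like the mean of the 9, of 11902 with a mean of at least 2 FPKM, were Fbxw24 (r = 0.99), Zp3, Gdf9, Elobl, Zp1, Astl, Fbxw21, Oas1e, Zp2 and Pramel25 (r = 0.98). Astl encodes ovastacin, the protease of the egg cortical granules that cuts the egg coat after fertilization. For single members the nearest gene was Nlrp4b for Nlrp5 (r = 0.99), Fbxw24 for Nlrp14, Nlrp9a for Nlrp4a (0.96), Bmp15 for Nlrp4f, Gdf9 for Nlrp2, Elobl for Ooep, Mos for Tle6 (0.94), Fbxw16 for Khdc3 and Npm2 for Padi6.

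The 250 bases before the annotated starts of the 9 genes were searched for motifs of oocyte transcription factors. Why the 9 genes varied together was not tested. RefSeq promoter windows on GRCm38.p6 were matched by symbol for 8 of the 9 genes, all but Nlrp14, in 11 windows, since Nlrp5, Nlrp4a and Tle6 have more than 1 annotated start. The E-box CANNTG, which FIGLA and other basic helix-loop-helix factors bind, occurred in 10 of the 11 windows, against 66.2% of 32851 windows of the same length. Counted by gene, it occurred in 7 of the 8. The NOBOX elements TAATTG and TAATTA occurred in 2 of the 11, those of Nlrp5 and Ooep, against 11.3%. Both strands were read, and no E-box overlapped a NOBOX element in these windows. A match is a description of letters and not of binding. The most upstream windows of Nlrp5 and Ooep, which hold both motifs, of Padi6 and Khdc3, which hold E-boxes alone, of Tle6, whose values departed most from the rest, and of Nlrp2, which holds neither, read as follows from 5′ to 3′, with matches in capitals.
Nlrp5 (chr7:23385639-23385888, plus strand): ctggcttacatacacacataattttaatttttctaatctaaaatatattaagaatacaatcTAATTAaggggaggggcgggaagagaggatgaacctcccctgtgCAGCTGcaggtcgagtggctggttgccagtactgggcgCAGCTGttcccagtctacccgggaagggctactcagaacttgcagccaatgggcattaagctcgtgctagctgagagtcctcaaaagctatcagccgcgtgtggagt
Ooep (chr9:78378589-78378838, minus strand): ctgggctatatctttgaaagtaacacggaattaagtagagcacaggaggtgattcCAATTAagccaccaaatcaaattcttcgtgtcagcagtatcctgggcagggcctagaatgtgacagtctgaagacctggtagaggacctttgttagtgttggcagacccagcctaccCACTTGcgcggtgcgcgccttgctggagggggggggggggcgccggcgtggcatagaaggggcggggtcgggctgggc
Padi6 (chr4:140742644-140742893, minus strand): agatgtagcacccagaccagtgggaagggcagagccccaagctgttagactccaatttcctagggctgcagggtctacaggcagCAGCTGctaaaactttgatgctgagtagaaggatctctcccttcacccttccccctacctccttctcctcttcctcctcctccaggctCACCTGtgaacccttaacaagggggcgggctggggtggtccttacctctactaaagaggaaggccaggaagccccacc
Khdc3 (chr9:73102148-73102397, plus strand): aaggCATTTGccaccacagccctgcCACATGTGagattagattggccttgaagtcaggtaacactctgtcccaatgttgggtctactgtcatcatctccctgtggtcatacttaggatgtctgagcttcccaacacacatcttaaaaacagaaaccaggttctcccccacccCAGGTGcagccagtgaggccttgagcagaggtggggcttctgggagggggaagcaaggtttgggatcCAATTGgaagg
Tle6 (chr10:81600901-81601150, minus strand): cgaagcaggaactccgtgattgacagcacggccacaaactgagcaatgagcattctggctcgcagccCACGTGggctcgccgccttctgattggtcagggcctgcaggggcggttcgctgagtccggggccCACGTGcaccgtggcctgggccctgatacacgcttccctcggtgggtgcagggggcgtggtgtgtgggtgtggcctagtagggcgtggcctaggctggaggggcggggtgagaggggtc
Nlrp2 (chr7:5351036-5351285, minus strand): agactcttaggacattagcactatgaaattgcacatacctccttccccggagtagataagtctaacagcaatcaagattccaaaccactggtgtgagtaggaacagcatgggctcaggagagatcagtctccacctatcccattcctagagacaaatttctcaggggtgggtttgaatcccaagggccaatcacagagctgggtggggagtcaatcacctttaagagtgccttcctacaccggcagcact

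In the printed window, Nlrp5 has 2 E-boxes and 1 NOBOX element, and Ooep has 1 E-box and 1 NOBOX element. Khdc3 has 5 E-boxes, of which 2 overlap, and Padi6 and Tle6 have 2 each. The share of G and C ranges from 48.8% in Nlrp5 and Nlrp2 to 67.2% in Tle6.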

How the data were processed

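Polyadenylated ovary RNA was sequenced in pairs in 9 libraries, 3 per group. The authors deposited 1 table of FPKM values. Per the submitters' processing notes, reads went through fastp 0.23.4 and the build is GRCm39; aligner, quantifier and annotation were not given in the sources used here. Columns were matched to samples by the names in the sample descriptions, and 0 stayed unmatched.

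Values were taken as log2(FPKM + 1), which understates changes of low genes. Entries with at least 1 FPKM in 3 of 9 libraries were kept. A linear model with a mean per group was run over every library (limma 3.58.1, R 4.3.3, eBayes with trend, 6 residual degrees of freedom), adjusted by Benjamini and Hochberg over 13338 entries, with a call at an adjusted p under 0.05. SDs are over the 3 libraries of a group and SEs come from the fit. Relative levels subtract the mean of 13 oocyte genes and were compared by exact permutation. Lists and likeness are described without tests. Named were all 9 genes, all other reproductive NLRP genes, partners and KH relatives listed, up to 4 genes of highest mean in other lists, the 10 most alike profiles and the gene nearest to each of the 9. The members and lists were chosen with earlier results of these data known. The procedure was tested on simulated data. Alternatives were another pseudocount (0.1), filter (none or 5 FPKM) or scaling (TPM, median of ratios), 2 groups only, a replicate block, robust eBayes, library weights, zona genes as reference and libraries left out. Promoter windows are RefSeq's on GRCm38.p6, another build than the table's, and were matched by symbol alone.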

Additional observations from a re-analysis of the deposited data

How the results depend on the processing

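The log2 fold changes of the 9 genes stayed above 0 over 19 settings in CTX against NC (170 values), 19 in HBOT against NC (170) and 18 for both groups together (161). Calls appeared only with library weights, for 3 of the 9 in HBOT against NC and 5 of the 9 for both groups together (lowest adjusted p = 0.0189 by limma). Of all 13338 entries, 181 and 451 were called with those weights. In CTX against NC 0 of 170 values were called (lowest adjusted p = 0.0718 by limma). A filter of 5 FPKM left 8 of the 9 genes.

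Counts of all genes called, 0 with the settings as reported, became 31 (2 groups only), 123 (library weights) and 16 (without both HBOT replicate 2 and CTX replicate 1) in CTX against NC. In HBOT against CTX they became 1 (no filter), 5 (library weights) and 2 (without both), in HBOT against NC 1 (no filter) and 181 (library weights), and for both groups together 451 (library weights) and 31 (without both). Leaving out 1 library gave 0 to 9, 0 to 1, 0 to 3 and 0 to 9 calls in these 4 comparisons. The cause was not tested. With a replicate block the counts were 0, 0, 0 and 0. The correlation of deviations between same-numbered libraries ran from -0.287 to 0.156. Libraries with different numbers were not compared, so these values cannot tell whether a replicate number marks a shared batch.

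In HBOT against CTX 9 of 170 values changed sign. Tle6 went to 0.0483 with median-of-ratios scaling, and Ooep to -0.0146 with library weights. With 1 library left out, Ooep ran from -0.20 to 0.17, Tle6 from -0.11 to 0.11, Padi6 from -0.0857 to 0.30, Nlrp4f from -0.0330 to 0.25 and Nlrp2 from -0.00808 to 0.17. Relative to the zona genes alone the median in HBOT against CTX was -0.10. Of the 10 most alike genes 5 remained over deviations from group means and 7 without HBOT replicate 2. Depth, and so counting error, is unknown.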
